A study of Mus musculus with 6 samples.

Results

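Transcripts of Cyp7b1, the oxysterol hydroxylase of the alternative bile acid pathway, were close to the detection floor in parental 4T1 mouse mammary carcinoma cells (P) and at a mid-range level in their axitinib-resistant derivative (AxR). The gene is described here with 7 genes that make, bind or respond to oxysterols, 8 of the 53465 genes in the table: the enzymes Ch25h, Cyp27a1 and Hsd3b7, the oxysterol receptor Gpr183, the liver X receptors Nr1h2 and Nr1h3, and the liver X receptor target Mylip. The genes were taken by name, and Cyp7b1 was chosen by its measured fold change between AxR and P in these same libraries, so its values are a description and were not tested. Hsd3b7 and Nr1h2 rose 1.48-fold and 1.43-fold in AxR, Nr1h3 and Mylip did not pass the test, and Ch25h, Cyp27a1 and Gpr183 had at most 3 counts in any library.

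Oxysterols are oxygenated forms of cholesterol. CH25H and the mitochondrial CYP27A1 add a hydroxyl group to the side chain of cholesterol. CYP7B1 then adds another to the steroid ring, which leads either to inactivation and bile acids or, from the CH25H product, to the ligand that draws lymphocytes through GPR183 (EBI2). HSD3B7 carries out the next step and removes that ligand. Side-chain oxysterols also activate the liver X receptors (LXR), encoded by Nr1h3 (LXRα) and Nr1h2 (LXRβ), which pair with retinoid X receptors to induce cholesterol export genes and Mylip (IDOL), a ubiquitin ligase that lowers lipoprotein receptors, and the same oxysterols hold back cholesterol synthesis by SREBP2.

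RNA sequencing covered 3 libraries of P and 3 of AxR. Axitinib is an inhibitor of VEGF receptor kinases, and 4T1 is a mammary carcinoma line of BALB/c mice. AxR is a single line, grown from a metastatic lesion in mice given axitinib at 100 mg/kg/day while the primary tumor grew and after its removal. It was then held in culture with 0.5 μM axitinib for more than 2 months. P did not pass through treated mice, and the authors describe P as vehicle-treated. The treatment labels name axitinib for AxR and none for P, whereas the growth text attached to all 6 libraries names 0.5 μM axitinib. Selection, passage through mice, passage in culture and the presence of the drug therefore cannot be told apart. No source says that the 3 libraries of a line were separate cultures, and p-values measure the spread between these libraries, which may be technical.

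Libraries held 15495260 to 17294525 estimated counts, so that 3 counts, taken as the detection floor, stood for 0.171 to 0.195 CPM (counts scaled to 1000000 per library after upper-quartile normalization). Of 13550 genes that passed the low-count filter, 63.5% differed between the lines past an adjusted p of 0.05 (quasi-likelihood test of edgeR), 32.8% higher and 30.8% lower in AxR, and the median log2 fold change over all of them was 0.006. Of 9 mammary epithelial markers, 8 were above the floor and Krt5 had no count, with a summed level of 1570 to 1730 CPM in P and 2340 to 2430 CPM in AxR. Most of that sum came from Krt18, Cdh1 and Krt8, which were higher in AxR (log2 fold change 0.36, 0.60 and 0.68). Epcam (0.78) and Krt14 (2.45) were also higher, whereas Cldn7 (-3.43), Krt19 (-1.31) and Elf3 (-0.29) were lower. The 10 leukocyte and macrophage markers summed to 6.13 to 8.27 CPM in P and 16.5 to 17.3 CPM in AxR, nearly all from Cd68 and Cd14, while Tyrobp, Fcer1g, Adgre1 and Cd3e had no count and Ptprc at most 2 counts. The 10 fibroblast and reticular markers summed to 22.4 to 24.0 CPM in P and 10.2 to 11.6 CPM in AxR, nearly all from Pdgfra, with no count for Col3a1, Lum, Ccl19, Ccl21a or Cxcl13. Sums of the 5 endothelial (0.425 to 0.634 CPM in P and 0.0 to 0.191 in AxR), 5 lung epithelial (0.288 to 0.425 and 0.381 to 0.398) and 5 hepatocyte markers (0.0 to 0.0577 and 0.0568 to 0.0637) stayed under 1 CPM, and the part of any marker list in the results was not tested. In bulk RNA, more cells with a transcript and more transcript per cell cannot be told apart.

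Cyp7b1 (ENSMUSG00000039519.6), on the minus strand of chromosome 3 from 18071950 to 18243338 (GRCm38), had 6, 2 and 2 counts in the P libraries and 216, 205 and 227 counts in the AxR libraries. Every AxR library stood far above every P library, and only P replicate 1 rose over 3 counts. As levels, these were 0.364, 0.115 and 0.130 CPM in P (0.203 ± 0.140, SD, n = 3) and 13.7, 13.1 and 12.9 CPM in AxR (13.2 ± 0.425). The fitted log2 fold change was 5.97, the 25th highest of the 13550 genes tested, a rank that the choice by fold change largely fixes. Because P is so low, the size is best read from pooled counts: 10 in P and 648 in AxR, a depth-scaled ratio of 64.9 with a 95% exact interval of 35.1 to 136 that covers counting error only. Without P replicate 1 the pooled P count was 4 and the ratio 108 (42.0 to 397), so the fold is uncertain by more than 1.5 times from the P side while the AxR level is not. Per kilobase of exon, Cyp7b1 lay above 1.7% of tested genes in P and above 49.0% in AxR. It passed the low-count filter through its AxR libraries, so its low place in P among tested genes largely follows from the filter and its choice.

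**Figure D1:**
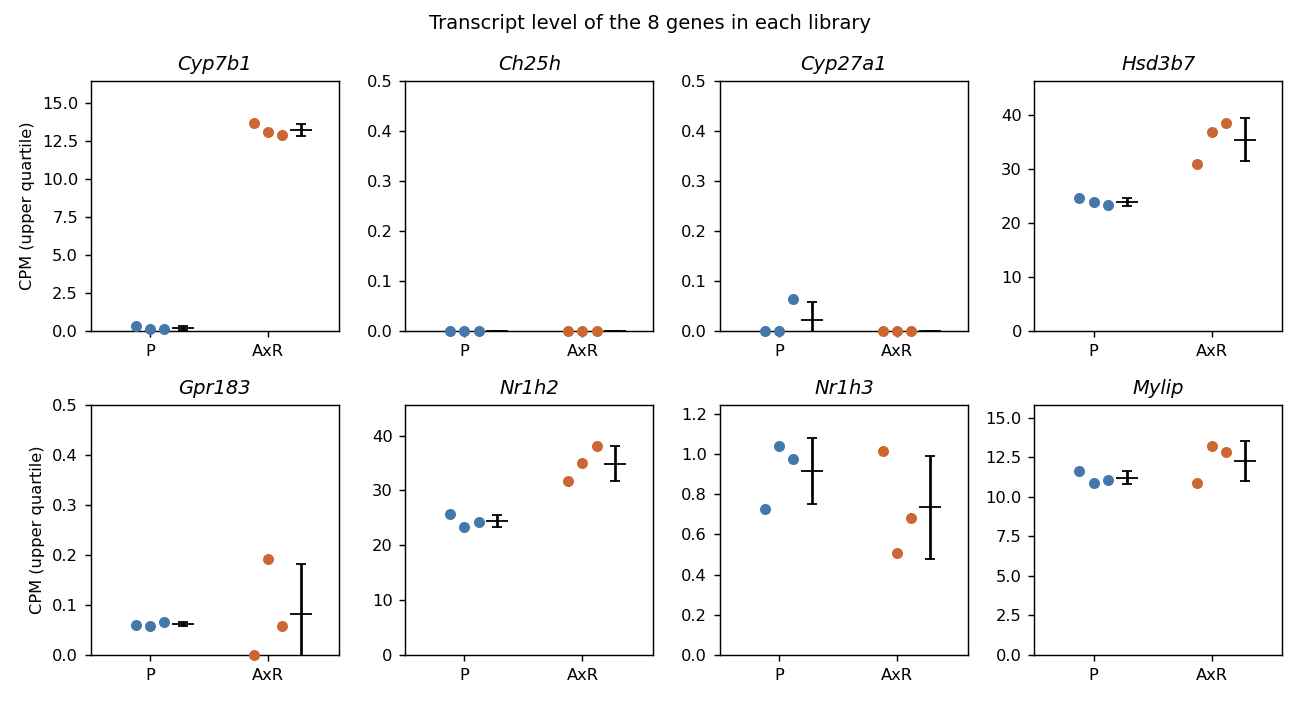
Level of each of the 8 genes in CPM (vertical axis, linear from 0, own scale per panel) in the 3 P and 3 AxR libraries; points are libraries, and the dash with bars beside them is the mean ± SD, cut at 0. Cyp7b1 goes from 0.203 to 13.2 CPM, Hsd3b7 and Nr1h2 have all AxR libraries above all P libraries, Nr1h3 and Mylip overlap, and Ch25h, Cyp27a1 and Gpr183 lie at or under the detection floor.

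Among cytochrome P450 genes, a family looked at after the values were seen, low expression was the rule in 4T1. Of 95 protein-coding family members by symbol, 61 had no count in any library and 75 had at most 3 counts in every library. Cyp7b1 ranked 14th by level per kilobase in P, at 0.0939 ± 0.0645 CPM per kb, and 3rd in AxR, at 6.10 ± 0.196 CPM per kb. The P450 genes above it in AxR were Cyp51, a demethylase of cholesterol synthesis, at 32.1 CPM per kb, and Cyp20a1, an orphan family member, at 17.3 CPM per kb. Cyp39a1, which hydroxylates the oxysterol made in brain, was 6th with 2.34 CPM per kb in AxR.

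Genes beside Cyp7b1 on chromosome 3 moved far less than Cyp7b1 itself, which the choice of Cyp7b1 by its fold change largely fixes. The nearest tested genes on one side were Gm5844, a processed pseudogene, with a log2 fold change of -0.35, Ythdf3, an m6A reader, with 0.44, and Car13, a carbonic anhydrase, with 1.07. On the other side Armc1 had 0.53, Mtfr1, a mitochondrial fission regulator, 0.16, and Pde7a, a cAMP phosphodiesterase, 1.16. Over the 10 nearest tested genes on each side, from -7.89 to 3.83 Mb, the median was 0.46 with a range of -0.48 to 2.96. Of those 20, 15 were higher and 2 lower in AxR, where 32.8% and 30.8% of all tested genes were. The highest of the 20, named after its value was seen, was Cp, the plasma ferroxidase ceruloplasmin. It had 57.0 ± 5.54 CPM in P and 442 ± 46.5 CPM in AxR. Cyp7b1 stood 5.51 log2 units above the median of those 20 genes, and the whole chromosome had a median of 0.32 over 717 genes.

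**Figure D2:**
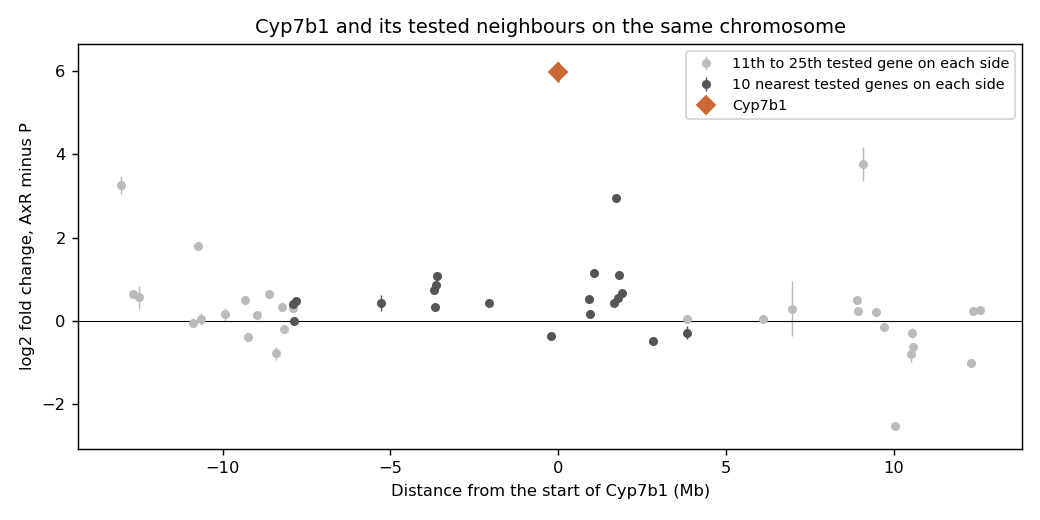
Log2 fold change (AxR minus P) of Cyp7b1 and its 25 nearest tested genes per side against distance from the Cyp7b1 start in Mb. Bars are standard errors derived from the test statistic, and that of Cyp7b1 is narrower than its counting error. Cyp7b1, chosen by its fold change, stands at 5.97, above all 50 neighbors, whose log2 fold changes run from -2.52 to 3.77.

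The 5 tested genes whose profile over the 6 libraries lay nearest to that of Cyp7b1 were Rsad2, Phf11d, Glipr1, Gm4907 and Tgtp1. Distances, as the root mean square of gene-centered log2 CPM over the 6 libraries, were 0.257, 0.258, 0.367, 0.374 and 0.405. Rsad2, the antiviral viperin, had 3, 0 and 1 counts in P and 159, 180 and 130 in AxR. Phf11d had 9, 7 and 3 counts in P and 331, 318 and 324 in AxR. Tgtp1, an interferon-induced GTPase with a near-identical copy that can share its reads, had 4, 0 and 3 counts in P and 208, 205 and 174 in AxR. Glipr1 had 1 count in each P library and 134 to 177 counts in AxR, and Gm4907 had none in P and 57 to 80 in AxR. What these genes share with Cyp7b1 in this measure is near absence in P and a similar size of difference, which the choice of Cyp7b1 largely fixes.

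The enzymes that make the substrates of CYP7B1 were at or under the floor. Ch25h (ENSMUSG00000050370.4, chromosome 19, 34473778 to 34475164, minus strand) was at 0 in all 6 libraries, where the floor would admit at most 0.195 CPM. Cyp27a1 (ENSMUSG00000026170.6, chromosome 1, 74713574 to 74737892, plus strand) had 1 count in P replicate 3 and none elsewhere. Neither gene can be compared between the lines at this depth. Other oxysterol-producing P450 genes were also low. Cyp46a1, the brain cholesterol hydroxylase, had 3, 3 and 4 counts in P and 12, 8 and 8 in AxR. Cyp3a13 had at most 1 count in P and 3 to 5 in AxR, and Cyp11a1 and Cyp3a11 had none. The P450 gene Cyp8b1 had none either. Cyp7a1, which starts the classical bile acid pathway, had 1 count in AxR replicate 1 and none in the other libraries.

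Hsd3b7 (ENSMUSG00000042289.11, chromosome 7, 127800604 to 127803802, plus strand), the dehydrogenase that follows CYP7B1, had 24.7, 23.8 and 23.3 CPM in P (23.9 ± 0.674, SD, n = 3). In AxR it had 31.0, 36.8 and 38.6 CPM (35.4 ± 3.99), and the lowest AxR library was above the highest P library. The log2 fold change was 0.57 (SE 0.0846, 1.48-fold), and the quasi-likelihood test of edgeR gave an adjusted p of 2.97e-05 after Benjamini-Hochberg correction. A two-sided exact permutation test of 3 against 3 libraries gave p = 0.1, the smallest it allows. Hsd3b7 overlaps Gm49388 on the same strand, which took 22 and 25 counts in P replicates 1 and 2 and none elsewhere. With both genes summed the levels were 24.9 ± 1.38 CPM in P and 35.4 ± 3.99 CPM in AxR, a log2 ratio of 0.51.

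The G protein-coupled receptor of the dihydroxylated ligand was at the floor. Gpr183 (ENSMUSG00000051212.8, chromosome 14, 121952551 to 121965195, minus strand) had 1 count in each P library and 0, 3 and 1 counts in AxR. It lies within Ubac2, a gene on the other strand with 259 to 413 counts.

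Of the LXR genes, the one encoding LXRβ was the more abundant, and it rose in AxR. Nr1h2 (ENSMUSG00000060601.13, chromosome 7, 44549616 to 44553951, minus strand) had 25.6, 23.4 and 24.2 CPM in P (24.4 ± 1.12, SD, n = 3) and 31.8, 34.9 and 38.0 CPM in AxR (34.9 ± 3.12). The lines did not overlap, and AxR replicate 3 was the highest library, as it was for Hsd3b7. The log2 fold change was 0.52 (SE 0.0797, 1.43-fold, adjusted p 4.19e-05 by edgeR's quasi-likelihood test, exact permutation p = 0.1), where chromosome 7, which holds both genes, had a median of 0.18 over 1011 genes. Nr1h3 (ENSMUSG00000002108.10, chromosome 2, 91184061 to 91202834, minus strand), encoding LXRα, had 12, 18 and 15 counts in P and 16, 8 and 12 in AxR. Its levels of 0.914 ± 0.164 and 0.736 ± 0.257 CPM overlapped, and the log2 fold change of -0.31 (SE 0.349) did not pass the test (adjusted p 0.451, edgeR; exact permutation p = 0.3).

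Mylip (ENSMUSG00000038175.10, chromosome 13, 45389742 to 45412022, plus strand) had 11.7, 10.9 and 11.1 CPM in P (11.2 ± 0.397, SD, n = 3) and 10.8, 13.2 and 12.8 CPM in AxR (12.3 ± 1.26). AxR replicate 1 was the lowest of all 6 libraries and AxR replicate 2 the highest, so the lines overlapped. The log2 fold change was 0.13 (SE 0.104, adjusted p 0.274 by edgeR's quasi-likelihood test, exact permutation p = 0.4). Of the 4 tested genes other than Cyp7b1, 2 were thus higher in AxR (32.8% of all tested genes were), none was lower and 2 did not pass, and 2 had lines that did not overlap, against 68.3% of all tested genes.

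In level per kilobase of exon, the order in P was Hsd3b7 (8.64 ± 0.243 CPM per kb), Nr1h2 (7.28 ± 0.333), Mylip (3.47 ± 0.123), Nr1h3 (0.364 ± 0.0652) and Cyp7b1, with Gpr183, Cyp27a1 and Ch25h at or under the floor. In AxR it was Hsd3b7 (12.8 ± 1.44 CPM per kb), Nr1h2 (10.4 ± 0.930), Cyp7b1 (6.10 ± 0.196), Mylip (3.80 ± 0.391) and Nr1h3 (0.292 ± 0.102). Cyp7b1 passed Nr1h3 and Mylip between the lines. Hsd3b7 and Nr1h2, neighbors in the order, overlapped in AxR but not in P.

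RefSeq start-site windows on GRCm38.p6 were given for 7 of the 8 genes, all but Cyp7b1, and the 250 bases before the start are printed for Hsd3b7 and Nr1h2, which rose, and for Mylip, an LXR target that did not pass the test. Both strands were searched for AGGTCA, the half-site of LXR and related nuclear receptors, for the LXR repeat of that site with 4 bases between its copies, for the GC box GGGCGG, and for the interferon response core of GAAA, any 2 bases and GAAA. Capitals mark the GC box, read as GGGCGG or, on the other strand, CCGCCC.
Hsd3b7, chr7:127800359-127800608, plus strand: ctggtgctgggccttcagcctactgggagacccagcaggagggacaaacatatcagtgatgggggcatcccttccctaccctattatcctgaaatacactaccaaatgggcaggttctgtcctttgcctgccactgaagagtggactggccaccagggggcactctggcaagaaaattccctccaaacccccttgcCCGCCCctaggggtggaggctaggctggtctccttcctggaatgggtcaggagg
Nr1h2, chr7:44553966-44554215, minus strand: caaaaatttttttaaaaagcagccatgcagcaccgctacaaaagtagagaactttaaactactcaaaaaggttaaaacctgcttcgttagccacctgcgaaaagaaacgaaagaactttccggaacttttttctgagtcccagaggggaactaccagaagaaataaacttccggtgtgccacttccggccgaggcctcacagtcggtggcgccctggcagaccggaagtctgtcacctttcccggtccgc
Mylip, chr13:45389492-45389741, plus strand: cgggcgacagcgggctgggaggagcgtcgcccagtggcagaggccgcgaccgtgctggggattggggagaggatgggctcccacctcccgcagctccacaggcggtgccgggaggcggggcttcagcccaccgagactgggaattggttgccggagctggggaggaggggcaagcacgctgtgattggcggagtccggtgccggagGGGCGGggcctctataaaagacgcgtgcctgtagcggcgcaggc
The GC box began 54 bases before the start in Hsd3b7 and 44 bases before it in Mylip, and was not in the Nr1h2 window. Cyp27a1 also held it, and it occurs in 32.7% of 32851 windows of the same length. None of the windows of those 7 genes held AGGTCA (14.0% of all windows), its spaced repeat (0.0152%) or the interferon core (2.98%), which says only that these letters are not in those 250 bases.

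Beyond these genes, 115 genes of 11 oxysterol-related lists were counted, of which 82 were tested and 33 were not, 13 for lack of any count. In AxR 37 of the 82 were higher, 20 were lower and 25 did not pass, so 45.1% were higher where 32.8% of all tested genes were, and the median log2 fold change was 0.16 against 0.006 over all genes. With a log2 fold change of at least 1 as well, 16 were higher and 4 lower, where 7.99% and 4.72% of all tested genes were. All 6 tested list genes on chromosome 18, whose 318 tested genes had a median of 0.50, were among the 37, and 34 of the 37 and 18 of the 20 lay beyond the median of their own chromosome, in a count added after the data were seen. The exceptions were Hsd17b4, Cyb5a and Ube2d2a among the higher and Ncoa2 and Scap among the lower genes. Where none of a list's genes, or of the 4 tested genes described first, was called in a direction by edgeR, the count was also 0 by DESeq2 and limma-voom and at an unadjusted p under 0.05, except for 1 LXR partner, Rxra, at the unadjusted p.

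**Figure D3:**
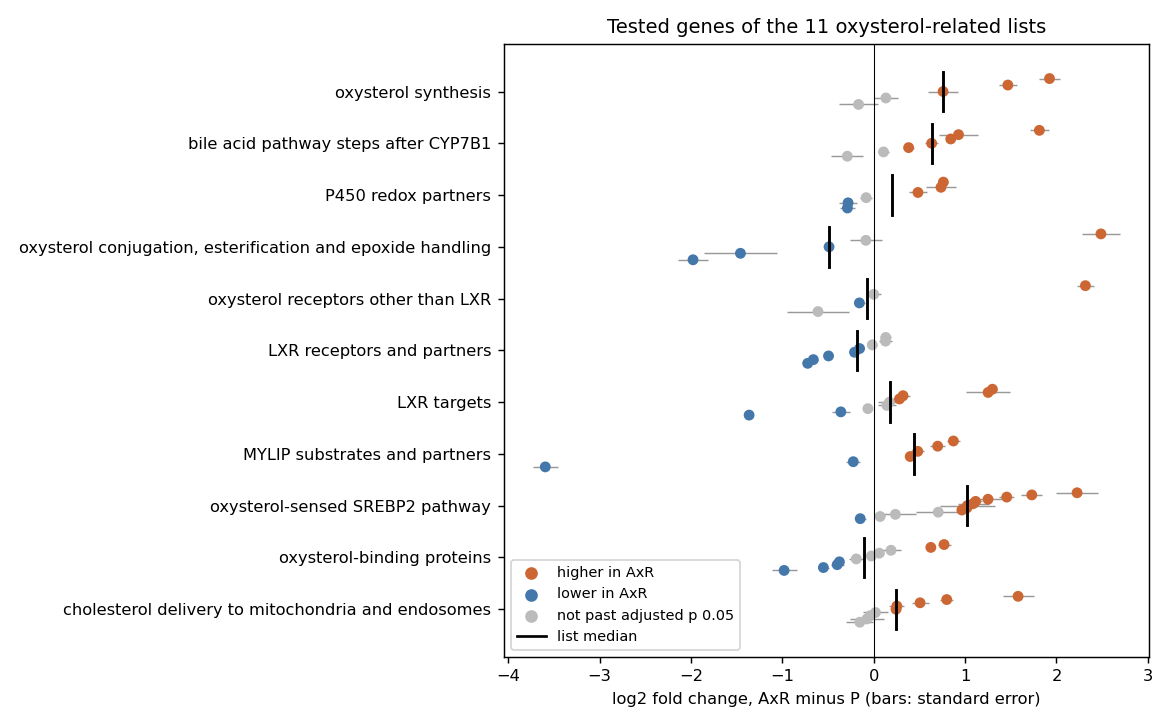
Log2 fold change (AxR minus P, horizontal axis) of every tested gene in the 11 lists, with standard error bars; orange is higher, blue lower and gray not past an adjusted p of 0.05 by edgeR, and the black line is the list median. Medians run from -0.49 for conjugation, esterification and epoxide handling to 1.02 for the SREBP2 pathway, and Vldlr at -3.60 is the farthest gene.

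The synthesis list had a median of 0.76. Of its 5 tested genes, 3 were higher in AxR and none lower, where 32.8% and 30.8% of all tested genes were. The 3 higher genes of the list are sterol enzymes of cholesterol synthesis. Ebp, a sterol isomerase, went from 5.76 ± 0.770 to 21.9 ± 1.93 CPM (log2 fold change 1.92) and Hsd17b7 from 7.77 ± 0.599 to 13.2 ± 3.36 CPM (0.76). Cyp39a1 (0.13) and Hsd11b1 (-0.17), which interconverts ring-oxidized oxysterols, did not pass the test.

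The steps that follow CYP7B1 and HSD3B7 toward bile acids had a median of 0.63. Of 7 tested genes, 5 were higher and none lower, where 32.8% and 30.8% of all tested genes were. Among the 5, Acox2, the branched-chain oxidase, rose from 6.78 ± 0.788 to 23.7 ± 1.93 CPM (1.81). Amacr, the racemase, rose from 1.72 ± 0.145 to 3.28 ± 0.611 CPM (0.93), and Abcd3, a peroxisomal importer, from 74.1 ± 1.93 to 133 ± 0.812 CPM (0.84). Scp2, the thiolase and sterol carrier, changed by 0.63 and Hsd17b4 by 0.38. Acot8, a peroxisomal thioesterase, had 6.81 ± 0.820 CPM in P and 5.55 ± 1.46 CPM in AxR (-0.29, adjusted p 0.164, edgeR) and Hsd17b10 had 0.11 (adjusted p 0.155), and neither passed the test. Akr1d1, Akr1c6 and Slc27a5, which reduce the ring or attach CoA in liver, had no count.

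The list of P450 electron donors and related genes was split, with 3 of 6 higher and 2 lower (median 0.20), against 32.8% and 30.8% of all tested genes. Por, the reductase that serves microsomal enzymes such as CYP7B1, rose from 74.8 ± 4.03 to 127 ± 2.91 CPM (0.76, adjusted p 1.41e-08, edgeR), and Cyb5a by 0.48. Of the mitochondrial partners of CYP27A1, Fdxr rose by 0.74 on the log2 scale and the ferredoxin Fdx1 fell by 0.28. The related ferredoxin Fdx2, counted in the list, fell by 0.29.

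The list for conjugation, esterification and epoxide handling had 1 of 5 tested genes higher and 3 lower, against 32.8% and 30.8% of all tested genes. Whether Ephx1 acts on oxysterols was not tested. Ephx1, the microsomal epoxide hydrolase, rose from 0.919 ± 0.0963 to 5.18 ± 0.554 CPM (2.49). Both sterol acyltransferases were lower: Soat2 went from 15.1 ± 2.55 to 3.82 ± 0.830 CPM (-1.98) and Soat1 from 177 ± 3.89 to 126 ± 0.891 CPM (-0.49). Lcat, the plasma acyltransferase, was near the floor in AxR, with 14, 16 and 12 counts in P and 6, 3 and 6 in AxR. Its levels were 0.851 ± 0.0706 and 0.304 ± 0.0999 CPM (-1.46). Sult2b1, the sulfotransferase of oxysterols, had -0.09 and did not pass.

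Of 11 oxysterol receptors other than LXR, 7 were too low to test. Esr1, the estrogen receptor that binds the CYP27A1 product, stood at 34.9 ± 3.69 CPM in P and 34.9 ± 2.24 CPM in AxR, with a standard error of 0.0829 on a log2 fold change of 0.00. Smo, the Hedgehog transducer that oxysterols bind, was slightly lower (-0.16), and Nr1i3 had -0.61 (adjusted p 0.126, edgeR). Rora had 1 to 3 counts in P and none in AxR, and Esr2 had 9, 6 and 8 counts in P and 2 in each AxR library.

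While Nr1h2 rose, none of the 8 tested LXR partners was higher and 5 were lower, against 32.8% and 30.8% of all tested genes. The retinoid X receptors Rxra (0.13, adjusted p 0.0656, edgeR) and Rxrb (0.13) did not pass and Rxrg had no count. The coregulators Nrip1 (139 ± 5.54 to 84.3 ± 1.69 CPM, -0.72), Ncoa6 (219 ± 3.32 to 139 ± 4.18 CPM, -0.66), Ncoa2 (-0.21) and Ncor1 (343 ± 4.96 to 308 ± 8.55 CPM) were among the 5 lower genes, a group that holds both coactivators and corepressors.

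Genes of the LXR target list did not move together. The list was drawn up for this report, and LXR control of its genes was not tested. Of 9 tested, 4 were higher and 2 lower, 3 did not pass, and the median was 0.17. Of all tested genes, 32.8% were higher and 30.8% lower. Scd2, a stearoyl-CoA desaturase, rose from 584 ± 13.9 to 1438 ± 99.5 CPM, Apoe from 1.44 ± 0.170 to 3.43 ± 0.870 CPM (1.25), and Scd1 by 0.32. Srebf1, the LXR-induced regulator of fatty acid synthesis, rose from 34.6 ± 1.66 to 42.1 ± 1.31 CPM (0.28). Arl4c fell from 478 ± 10.9 to 186 ± 1.76 CPM (-1.36), and the lipid transporter Abca7 fell by 0.36 on the log2 scale. The sterol exporters that define the LXR response were near 0 in both lines: Abca1 had 1 count in P replicate 3 and none elsewhere, Abcg1 had 3, 9 and 0 counts in P and 0, 1 and 0 in AxR, and Abcg5 had none. Lpcat3, Pltp and Ttc39b, like Mylip, did not pass the test.

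**Figure D4:**
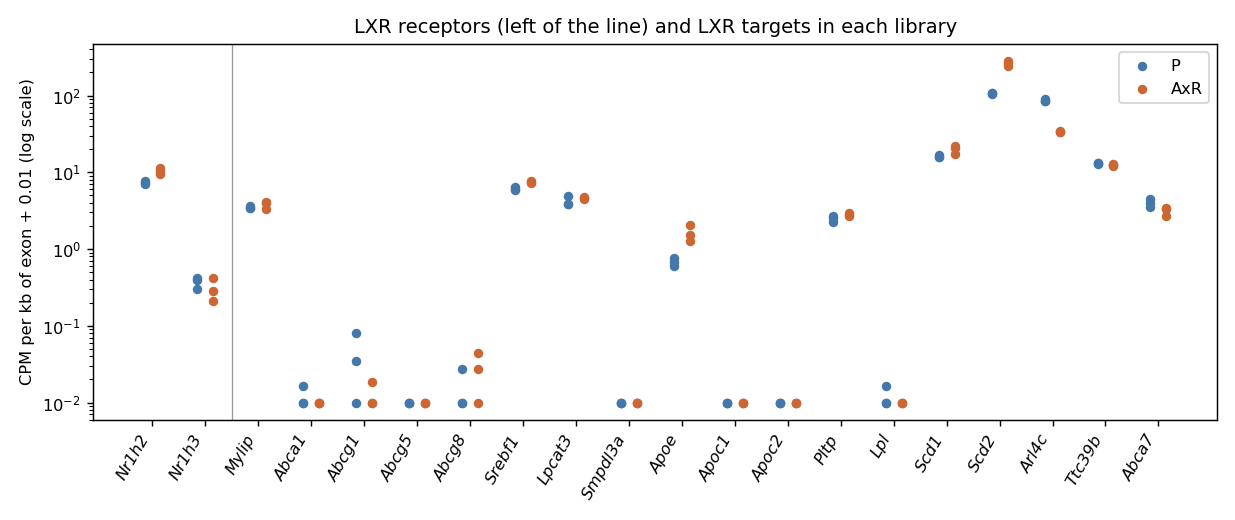
Level in CPM per kb of exon plus 0.01 (log axis) of Nr1h2 and Nr1h3 (left of the line) and of Mylip and the LXR target list, with 1 point per library, P in blue and AxR in orange. Scd2 and Arl4c are the most expressed listed targets and separate the lines in opposite directions. Of the 17 listed targets, 8, among them Abca1, Abcg1 and Abcg5, were too low to test.

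Around MYLIP, the lipoprotein receptors it targets went in different directions. Vldlr had 22.3, 20.1 and 22.2 CPM in P and 1.65, 2.17 and 1.53 CPM in AxR, a 12.1-fold lower level (log2 fold change -3.60, SE 0.134, adjusted p 9.68e-12, edgeR). Lrp8, a reelin and apolipoprotein E receptor, rose from 61.3 ± 4.38 to 85.7 ± 7.75 CPM (0.48). Of the ubiquitin-conjugating enzymes that work with MYLIP, Ube2d3 (0.87) and Ube2d2a (0.40) were higher and Ube2d1 (-0.22) was lower.

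The SREBP2 pathway, which oxysterols hold back through INSIG, had the highest list median, 1.02. Of its 13 tested genes, 9 were higher, 1 lower and 3 not past, where 32.8% of all tested genes were higher and 30.8% lower. Insig1 had 24.4, 24.2 and 32.4 CPM in P and 149.9, 133 and 95.3 CPM in AxR (2.23, adjusted p 0.000789, edgeR). Cyp51 rose from 42.8 ± 5.24 to 142 ± 18.5 CPM (1.73), Fdft1, squalene synthase, from 25.3 ± 2.40 to 69.3 ± 6.38 CPM (1.46), Stard4, a sterol carrier, from 29.3 ± 2.00 to 69.8 ± 13.7 CPM (1.25), and Sqle, squalene epoxidase, from 93.5 ± 3.08 to 203 ± 18.9 CPM. AxR replicate 1 was the highest and AxR replicate 3 the lowest AxR library for each of these 5 genes, the reverse of Hsd3b7 and Nr1h2. That spread was wide for Hmgcs1, the synthase early in the pathway, with 139.9, 112 and 80.2 CPM in AxR against 67.9 ± 8.55 CPM in P (0.71, adjusted p 0.0634, edgeR). Scap, the escort of SREBP2, was lower by a log2 fold change of -0.15, and Insig2 (0.07) did not pass.

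Oxysterol-binding proteins were mixed, with a median of -0.11. In AxR 2 of 10 tested genes were higher and 4 lower, where 32.8% and 30.8% of all tested genes were. Osbpl10 fell from 10.3 ± 0.645 to 5.22 ± 0.942 CPM (-0.98), Osbpl11 from 60.5 ± 1.16 to 41.3 ± 2.45 CPM (-0.55) and Osbpl5 by 0.40 on the log2 scale, and Osbp, the founding member, was also lower (-0.38). Osbpl1a rose from 21.9 ± 0.762 to 37.2 ± 1.45 CPM (0.77) and Osbpl3 from 85.3 ± 1.74 to 131 ± 3.42 CPM.

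Genes that deliver cholesterol to mitochondria and endosomes had 5 of 9 higher and none lower (median 0.24), against 32.8% and 30.8% of all tested genes. Stard5, a sterol carrier, rose from 4.67 ± 0.890 to 14.0 ± 2.93 CPM (1.58), Npc1, which moves cholesterol out of lysosomes, from 28.0 ± 1.25 to 48.6 ± 3.44 CPM (0.80), and Stard3 from 11.4 ± 0.424 to 16.1 ± 1.18 CPM (0.51). Tspo (0.25) and Npc2 (0.24) rose less, and Star, the carrier for CYP27A1 and other mitochondrial enzymes, had 5.32 ± 0.290 CPM in P and 5.41 ± 0.608 CPM in AxR.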

How the data were processed

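Poly(A)-selected, strand-specific libraries of P and AxR cells were sequenced by the authors, who checked reads with FastQC 0.11.5, mapped them with STAR 2.6.0a (GRCm38, GENCODE M16), and deposited RSEM 1.3.1 estimated counts for each gene. Reads shared by genes are divided among them, so 10.3% to 10.7% of a library's values were fractional, and overlapping or near-identical genes are uncertain.

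Estimated counts were rounded and filtered with filterByExpr of edgeR 4.0.16 (R 4.3.3). The 13550 genes kept were scaled by upper quartile and compared between AxR and P in edgeR by quasi-likelihood F tests. P-values were adjusted over all genes kept after Benjamini and Hochberg. The procedure was run on simulated data in which few genes changed, which does not cover a contrast where 63.5% differ. Standard errors were derived as the absolute log2 fold change over the square root of the F statistic. Log2 CPM used a prior count of 2, and the exact permutation tests log2(CPM + 0.5). Symbols came from GENCODE M21, which held 53360 of the 53465 identifiers, and levels per kilobase used its merged exons. All 8 genes are reported, with up to 5 of each list by size of change among those past the threshold, some of which are not reported here; further genes that are named were picked after values were seen. The members and lists were chosen with earlier results of these data known. Alternatives were TMM, library-size scaling, DESeq2 1.42.0, limma-voom 3.58.1, other filters, a replicate block, a fold threshold and leaving out each library.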

Additional observations from a re-analysis of the deposited data

How the results depend on the processing

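Calls for Hsd3b7 and Nr1h2 (higher) and for Mylip (not past) held in the 13 alternative fits. That of Nr1h3 (not past) held in the 12 fits that kept the gene. Neither Hsd3b7 nor Nr1h2 reached the fold threshold, a log2 fold change of at least 1. Hsd3b7 ranged from 0.50 to 0.66 on the log2 scale, Nr1h2 from 0.45 to 0.58, Nr1h3 from -0.60 to -0.12 and Mylip from 0.09 to 0.22, with the highest adjusted p of Nr1h2 at 0.000497 and the lowest of Mylip at 0.0806. Leaving out 1 library at a time moved Cyp7b1 between 5.68 and 6.67, the higher value without P replicate 1. Those refits gave 35 to 39 higher and 17 to 19 lower list genes, and 4124 to 4499 higher and 3782 to 4112 lower genes overall. A log2 fold change of at least 1 reduced the list counts to 16 and 4, and the counts over all genes from 4441 and 4167 to 1083 and 640. The median around Cyp7b1 was 0.48 with 5 genes on each side and 0.30 with 25, against 0.46 with 10. Replicate numbers did not pair the libraries, as deviations of same-numbered libraries correlated at -0.0213, -0.0061 and -0.0217. In the fit with a replicate block Cyp7b1 had 5.97, and 36 list genes were higher and 19 lower.

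The log2 fold change of Esr1, 0.00 in the report and -0.068 without P replicate 2, changed sign to 0.004 with limma-voom, 0.001 with the replicate block, and 0.085, 0.02 and 0.039 without P replicate 3, AxR replicate 1 or AxR replicate 3. Fdx1 lost its call with DESeq2 (adjusted p 0.0672) and without P replicate 3 (edgeR, 0.0823), AxR replicate 2 (0.0741) or AxR replicate 3 (0.0749). Smo lost it without P replicate 1 (edgeR adjusted p 0.0985), P replicate 2 (0.0803) or AxR replicate 3 (0.145), and Tspo without P replicate 3 (edgeR adjusted p 0.0735) or AxR replicate 2 (0.0993). The causes were not tested. Depth limits Ch25h, Cyp27a1 and Gpr183, which were at the floor, and the P level of Cyp7b1.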
